A study of Mus musculus with 18 samples.

Results

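The miR-29 family was examined as 5 mature miRNAs, taken by their names from a table of 1966 mouse miRNAs. They were the 3 guide strands mmu-miR-29a-3p, mmu-miR-29b-3p and mmu-miR-29c-3p and the opposite strands mmu-miR-29a-5p and mmu-miR-29c-5p (mmu, for mouse, is left out from here on), and all 5 were found and had enough signal to be tested. Small RNA was sequenced from 18 mouse tissues in 3 groups. The 3 control libraries (AG) came from adrenal glands of wildtype mice labelled Cre negative. The 7 TI libraries came from tumors of Cre positive mice carrying an IGF2BP1 transgene in the Rosa26 locus, which the labels give as +/+ for 6 libraries and as +/- for 1, and 1 of these tumors was labelled as adrenal. The 8 TIM libraries came from tumors of Cre positive mice carrying both an IGF2BP1 and a MYCN transgene, of which 2 were labelled as adrenal and 1 as spinal. In the study both transgenes were driven by the CAG promoter after removal of a stop cassette by Cre recombinase made under the Dbh promoter, which is active in sympatho-adrenal cells, and the strain was backcrossed to C57Bl6/N. Ages were not given in the labels, and tumors were pieces of whole tissue, so fewer cells of a type and less RNA per cell cannot be told apart. IGF2BP1 is an RNA-binding protein that stabilises oncogenic transcripts, and MYCN is the transcription factor amplified in high-risk neuroblastoma.

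A miRNA guides the Argonaute protein to messenger RNAs that pair with its seed, the bases 2 to 8 from its 5′ end, and lowers their stability and translation. The miR-29 guides are known for restraining collagens, the DNA methyltransferases DNMT3A and DNMT3B, the survival protein MCL1, the cell cycle kinase CDK6 and the surface protein CD276. The transcripts that carry the miR-29 hairpins are known to be repressed by MYC proteins. The study counted miR-29 among the miRNAs with a seed match in the MYCN 3′UTR, and a comparison of its level in tumors and normal gland addresses how much of this guide was present. Per the study, the MYCN transgene lacks its native 3′UTR and the IGF2BP1 transgene was built without its own. Matches in these 3′UTRs thus concern the endogenous transcripts and not the transgenes.

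The mature sequences are shown because the guides share a seed that the opposite strands lack. They were taken from RefSeq, 5′ to 3′, and capitals mark the seed.
miR-29a-3p: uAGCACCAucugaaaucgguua
miR-29b-3p: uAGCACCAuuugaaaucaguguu
miR-29c-3p: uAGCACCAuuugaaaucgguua
miR-29a-5p: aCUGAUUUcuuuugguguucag
miR-29c-5p: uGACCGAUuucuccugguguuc
Among the 1675 miRNAs of the table that matched a RefSeq sequence, the seed of the guides was found in 3, which are the guides themselves. The seeds of miR-29a-5p and miR-29c-5p differed from it and from each other, and each was found in 1 miRNA of the table. Counted from the 5′ end, miR-29a-3p and miR-29c-3p differed at 1 of 22 bases, C10U. Against miR-29b-3p, miR-29a-3p differed at C10U, G18A, U21G and A22U. Reads of miR-29a-3p and miR-29c-3p are therefore told apart by 1 base, and how the alignment treated mismatches and reads with several matches is not given in the sources used here.

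The family is made from 4 hairpins in 2 pairs (coordinates of GRCm38.p6, whose chromosomes are those of mm10). Mir29a (chr6:31062660-31062747, minus strand) and Mir29b-1 (chr6:31063023-31063093, minus strand) lie 275 bases apart on chromosome 6. Mir29b-2 (chr1:195037040-195037120, plus strand) and Mir29c (chr1:195037547-195037634, plus strand) lie 426 bases apart on chromosome 1. Mature miR-29b-3p is the same in both pairs, so its level is the sum of 2 loci, whereas miR-29a-3p and miR-29c-3p come from 1 locus each.

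A match to the guide seed, TGGTGCT on the sense strand, was searched in the mouse 3′UTRs of GRCm39 with GENCODE annotation. It occurred in the 3′UTR of 8 of 8 textbook targets searched, the genes Cd276, Cdk6, Col1a1, Col3a1, Dnmt3a, Dnmt3b, Mcl1 and Mycn, and in 14.2% of all 20715 3′UTRs. The genes were picked as known targets and the lengths of 3′UTRs were not matched, so their count is no test against that share. Dnmt3a had 5 matches, and Cd276 and Cdk6 had 3 each. The matches below are those of an oncogene, a collagen, a DNA methyltransferase and a survival gene, with the seed match in capitals. They are matches of letters in GRCm39, and no binding was measured.
Mycn, chr12:12986663-12986689, minus strand: ctttttacaaTGGTGCTtaagttccag
Col3a1, chr1:45388132-45388158, plus strand: aatgtctcaaTGGTGCTataataaata
Dnmt3b, chr2:153528537-153528563, plus strand: tagcccggcaTGGTGCTcatgttctct
Mcl1, chr3:95569160-95569186, plus strand: gtcttaaccaTGGTGCTattcactggg
The match in Mycn begins at base 328 of a 3′UTR of 931 bases.

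Levels are the deposited values in CPM, reads scaled by the authors to the size of the library and by a TMM factor, which adjusts for the make-up of the library. The AG libraries held 21644743 to 23332704 reads on miRNAs, the TI libraries 11802837 to 21268124 and the TIM libraries 11641696 to 23435621. A level resting on 3 reads corresponds to between 0.101 and 0.272 CPM over the 18 libraries, and such limits cover counting error only. miR-148a-3p alone took 4.19% to 6.94% of the reads of a library in AG, 2.29% to 61.9% in TI and 6.53% to 44.2% in TIM. The columns name the group of a library and not its mouse, so the heterozygous, adrenal and spinal tumors could not be singled out. The study found more tumors than mice among the double transgenic animals, so TIM libraries may share a mouse, and p-values that count each library separately may then be too small. A TI library stood apart from the rest of its group, with 213 CPM of miR-467a-5p against 0.804 to 11.03 CPM in the other 6. AG had 128 to 162 CPM of this miRNA and TIM 61.9 to 822 CPM. The same TI library had the lowest share of miR-148a-3p, 2.29%. The calls and ranges in TI are also given without it. Of 5 markers of neurons and neuroendocrine cells, miR-124-3p, miR-9-5p and miR-9-3p passed higher in both tumor types against AG, a direction in which 26.4% of all miRNAs passed in TI and 25.5% in TIM. The other two did not pass, with log2 fold changes of -1.75 in TI and -2.27 in TIM for miR-375-3p (adjusted p = 0.20 and 0.094 from limma) and of -0.09 and 0.39 for miR-7a-5p (adjusted p = 0.92 and 0.63). In AG the liver miRNA miR-122-5p had between 780 and 2592 CPM, against at most 48.1 CPM in TI and 82.4 CPM in TIM.

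miR-29a-3p was the dominant member in every group. In the deposited CPM its level was lower in each of the 15 tumors than in each of the 3 adrenal glands. Of the 726 miRNAs with enough signal to be tested, 24.4% were lower without overlap in TI and 22.0% in TIM. In AG it had 3862, 4365 and 4499 CPM. In TI its lowest level was 199 CPM, the median 681 CPM and the highest 2641 CPM, in the library that stood apart, without which the median was 649 CPM and the highest 2043 CPM. In TIM its lowest level was 145 CPM, the median 337 CPM and the highest 3688 CPM. That highest TIM library had a TMM factor of 1.31, against 0.927 to 0.991 in AG. It held 109596 reads of miR-29a-3p among 22654966, where the AG libraries held 83530 to 97236 among 21644743 to 23332704. Without the TMM factor its level lay above all 3 adrenal glands, so the lack of overlap in TIM depends on the scaling. The adrenal glands thus lay close together, and the tumors spread over a wide range whose upper end came near the adrenal glands. The highest library had 1.16 times the level of the lowest in AG, 13.3 times in TI and 25.4 times in TIM. By mean CPM, miR-29a-3p was the 35th most abundant of the 1966 miRNAs in AG, the 68th in TI and the 69th in TIM.

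miR-29b-3p was the second guide by level. In AG it had 191, 203 and 207 CPM. In TI it ranged from 11.3 to 208 CPM with a median of 51.6 CPM, and in TIM from 6.24 to 277 CPM with a median of 25.1 CPM. In 6 of 7 TI and 7 of 8 TIM libraries its level lay below all adrenal glands, and in 1 library of each tumor type it lay above all of them. The one in TI was the library that stood apart, without which the highest level was 125 CPM.

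miR-29c-3p, the guide of the other pair, had 50.8, 62.4 and 70.8 CPM in AG. In TI it ranged from 4.23 to 49.8 CPM with a median of 10.7 CPM, and all 7 libraries lay below the adrenal glands. In TIM it ranged from 1.47 to 63.2 CPM with a median of 7.30 CPM, and 7 of 8 libraries lay below the adrenal glands.

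The opposite strands followed the same pattern at other levels. miR-29a-5p had 7.12, 8.02 and 8.65 CPM in AG, and 0.416 to 7.69 CPM in TI (median 2.25 CPM). In TIM it had 0.419 to 9.32 CPM (median 0.904 CPM). Its level rested on as few as 6 reads in a library. miR-29c-5p had 50.2, 53.7 and 54.7 CPM in AG, 8.18 to 70.7 CPM in TI (median 13.8 CPM) and 3.26 to 68.7 CPM in TIM (median 12.6 CPM). For both strands 6 of 7 TI and 7 of 8 TIM libraries lay below all adrenal glands. The remaining TI library was the one that stood apart, without which the highest levels in TI were 3.74 CPM of miR-29a-5p and 34.0 CPM of miR-29c-5p.

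**Figure D1:**
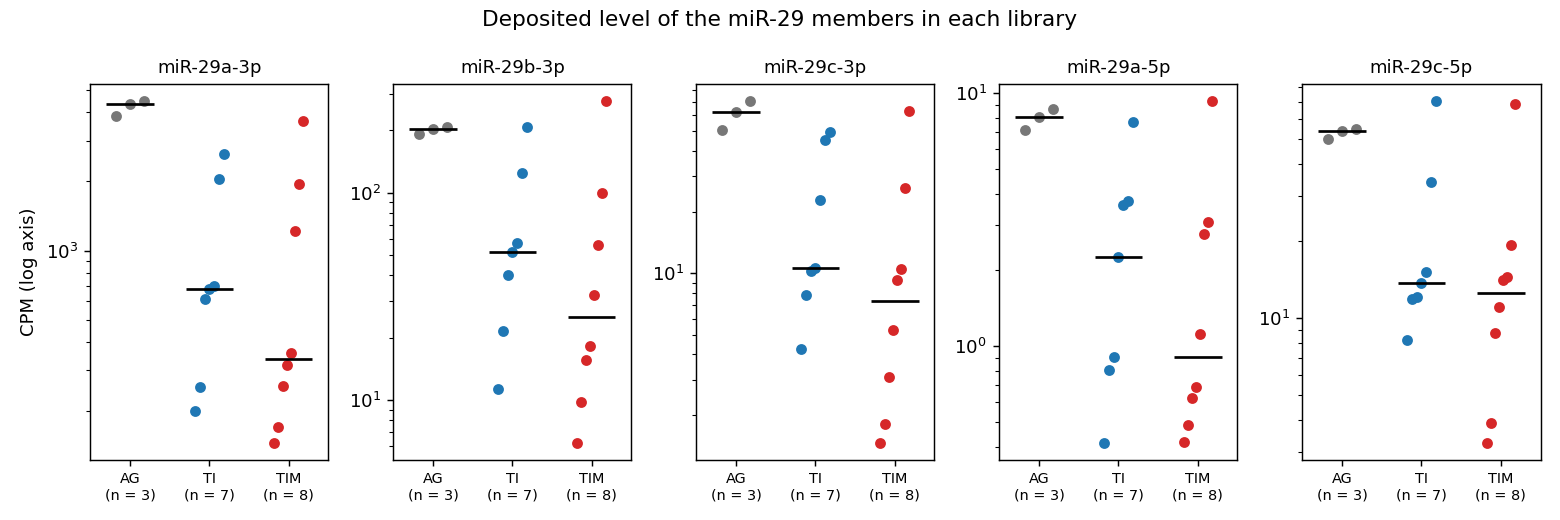
The level in CPM on a log axis is plotted for each member, with 1 point per library and a bar at the median of AG (n = 3), TI (n = 7) and TIM (n = 8). The AG points of miR-29a-3p lie between 3862 and 4499 CPM. With the TMM scaling of the deposited values, every tumor point of this miRNA lies below them.

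In AG the order of the members by mean level was miR-29a-3p (4242 ± 336 CPM, SD, n = 3), miR-29b-3p (201 ± 8.39 CPM), miR-29c-3p (61.3 ± 10.1 CPM), miR-29c-5p (52.9 ± 2.36 CPM) and miR-29a-5p (7.93 ± 0.77 CPM). The ranges of miR-29c-3p and miR-29c-5p overlapped, so these neighbours did not differ beyond their spread. In TI and TIM the same overlap was found, and there miR-29c-5p had the higher mean, 23.7 ± 22.4 CPM (SD, n = 7) against 21.6 ± 18.7 CPM in TI and 17.9 ± 21.2 CPM (SD, n = 8) against 15.1 ± 21.0 CPM in TIM. The summed level of the members was 4166 to 4840 CPM in AG, 223 to 2973 CPM in TI and 158 to 4106 CPM in TIM. miR-29a-3p made up 92.9 ± 0.20% of this sum in AG (SD, n = 3), 88.9 ± 1.52% in TI (n = 7) and 90.8 ± 2.78% in TIM (n = 8).

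In IGF2BP1 tumors all members had a lower mean level than in normal adrenal gland, and those that passed were the strands of the miR-29a hairpin. In TI against AG, 2 of 5 members passed an adjusted p-value of 0.05, both lower, in limma on log2(CPM + 1) with all 18 libraries and 726 miRNAs tested. Over all 726 miRNAs, 55.8% passed in this comparison and 29.3% passed in the lower direction. The log2 fold change was -2.60 for miR-29a-3p (standard error 0.93, adjusted p = 0.024) and -1.50 for miR-29a-5p (standard error 0.59, adjusted p = 0.037). The medians of miR-29a-3p differed by 6.41-fold. The groups did not overlap for miR-29a-3p and miR-29c-3p, with the tumors lower in both, against 24.4% of all miRNAs tested. For miR-29c-3p the margin was narrow, with 49.8 CPM in the highest TI library and 50.8 CPM in the lowest AG library. Of the reads of that TI library 45.2% were miR-148a-3p. With miR-148a-3p out of the totals its level of miR-29c-3p lay above all AG libraries. miR-29b-3p, miR-29c-3p and miR-29c-5p had log2 fold changes of -1.98, -1.90 and -1.50 and did not pass (adjusted p = 0.082, 0.072 and 0.077). All values are on the log2(CPM + 1) scale, which understates the change of miR-29a-5p most.

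The calls in TI depended on single libraries. Without the library that stood apart, which had the highest level of miR-29a-3p, miR-29b-3p, miR-29a-5p and miR-29c-5p in TI, 5 of 5 members passed, with a log2 fold change of miR-29a-3p of -2.92 (adjusted p = 0.012 from limma). In that fit 431 of all 721 miRNAs tested passed. Without any 1 of the 3 AG libraries 0 of 5 passed, while the log2 fold change of miR-29a-3p stayed between -2.67 and -2.55 (adjusted p = 0.063 to 0.067 from limma). The calls over all miRNAs also fell in these fits, to 294 of 710, 332 of 713 and 331 of 712. On the recovered reads, edgeR and DESeq2 each called 1 of 5, miR-29a-3p, where they called 55.4% and 60.4% of all miRNAs.

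In IGF2BP1/MYCN tumors all members were lower. In TIM against AG, 5 of 5 members passed, where 51.4% of all miRNAs tested passed and 25.9% passed in the lower direction. The log2 fold change was -2.99 for miR-29a-3p (standard error 0.91, adjusted p = 0.012 from limma), -2.62 for miR-29b-3p (standard error 0.93, adjusted p = 0.026) and -2.81 for miR-29c-3p (standard error 0.86, adjusted p = 0.012). For the opposite strands it was -1.79 for miR-29a-5p (standard error 0.58, adjusted p = 0.016) and -2.05 for miR-29c-5p (standard error 0.69, adjusted p = 0.020). The medians of miR-29a-3p differed by 12.9-fold. In the deposited CPM miR-29a-3p was the member whose groups did not overlap, against 22.0% of all miRNAs tested. Without the TMM factor its groups overlapped, with the highest TIM library above all AG libraries. The count was 2 or 3 of 5 when 1 of the AG libraries was left out, where 227 of 710, 278 of 713 and 266 of 712 miRNAs passed. It was 1 of 5 with edgeR on the recovered reads, which called 48.3% of all miRNAs, and 4 of 5 with DESeq2, which called 58.4%.

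The comparisons of TI and TIM share the 3 AG libraries, so they are not independent of each other. Between TIM and TI, 0 of 5 members passed in limma, where 5.23% of all miRNAs tested passed. At an unadjusted p under 0.05 the count was 0 as well, and edgeR and DESeq2 on the recovered reads each gave 0, where they called 0.413% and 17.0% of all miRNAs. The log2 fold change of miR-29a-3p was -0.39 with a 95% confidence interval from -1.86 to 1.07 (adjusted p = 0.80 from limma). That of miR-29c-3p, the member with the largest difference, was -0.91 with an interval from -2.29 to 0.47 (adjusted p = 0.43 from limma). The intervals hold differences of more than 2-fold in both directions for miR-29a-3p, so a smaller difference between the tumor types was not detectable with these libraries.

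**Figure D2:**
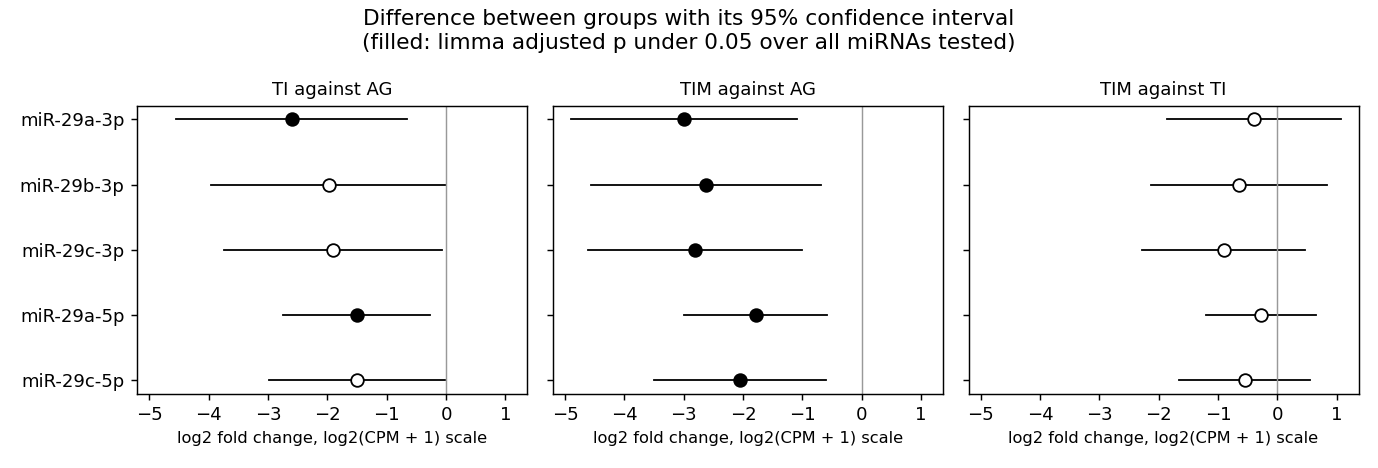
The log2 fold change on the log2(CPM + 1) scale is plotted for each member and comparison, with its 95% confidence interval as a line and a filled point where the limma adjusted p was under 0.05. Filled points are seen for 2 members in TI against AG, for 5 in TIM against AG and for 0 in TIM against TI.

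The members varied together from tumor to tumor. The library that ranked first in TIM for miR-29a-3p, with 3688 CPM, also ranked first for the other 4 members, and the library that ranked second, with 1944 CPM, ranked second for all of them. In TI the lowest library, with 199 CPM of miR-29a-3p, was the lowest for all 5 members, and the next lowest, with 254 CPM, was the next lowest for all 5. Over the 15 tumor libraries Pearson's r with miR-29a-3p on the log2(CPM + 1) scale was 0.98 for miR-29b-3p, 0.93 for miR-29c-3p, 0.93 for miR-29a-5p and 0.91 for miR-29c-5p. Without the library that stood apart these were 0.97, 0.91, 0.92 and 0.90 over 14 tumors. The points share a library, its depth and its scaling. The members that come from chromosome 1 alone, miR-29c-3p and miR-29c-5p, thus varied with miR-29a-3p, which comes from chromosome 6. Such likeness was not particular to the family, since miR-26a-5p, which is no member, had r = 0.93 with miR-29a-3p over the same 15 tumors. In TIM, 3 libraries had 1221 to 3688 CPM of miR-29a-3p and the other 5 had 145 to 357 CPM, which leaves a gap between them.

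The TIM libraries with a high level were also the more deeply sequenced. Those with 1221, 1944 and 3688 CPM of miR-29a-3p held 21361882, 23435621 and 22654966 reads, and the lowest ones, with 145 and 169 CPM, held 12133274 and 11641696 reads, the fewest of their group, with TMM factors of 1.80 and 1.85. A library of 21102520 reads had 357 CPM. Within TIM Pearson's r of miR-29a-3p with the reads per library on the log2 scale was 0.84 and Spearman's rho 0.93 (exact permutation adjusted p = 0.0043 and 0.011), and r was 0.81 without the 2 farthest libraries. These values rest on libraries divided by the gap named above. In TI the library with 2641 CPM held 21268124 reads, the most of its group, and that with 2043 CPM held 14461360. There r was -0.016 and rho 0.39 (exact permutation adjusted p = 0.97 and 0.45). Over all 15 tumors r was 0.53 and rho 0.65 (permutation adjusted p = 0.056 and 0.026).

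**Figure D3:**
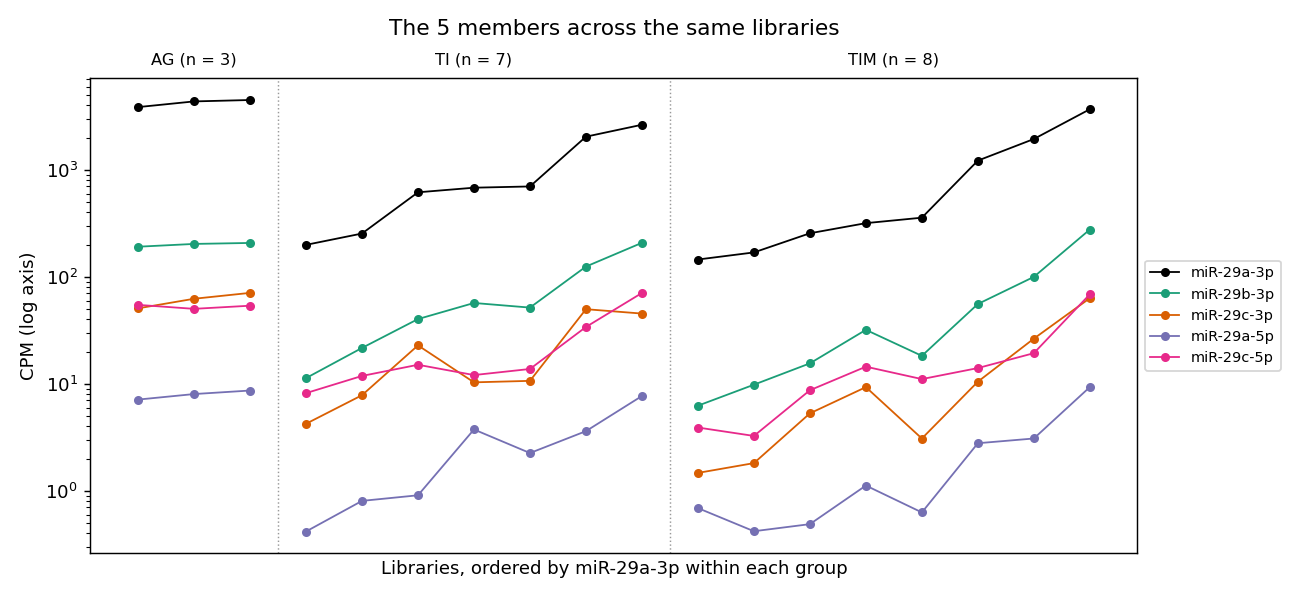
The level in CPM on a log axis is plotted for the 5 members, with 1 line per member and the libraries ordered by miR-29a-3p within AG (n = 3), TI (n = 7) and TIM (n = 8). The lines run nearly in parallel, from 199 to 2641 CPM of miR-29a-3p in TI and from 145 to 3688 CPM in TIM.

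The proportions between members were compared within libraries, where scaling cancels in reads but not fully on the log2(CPM + 1) scale. In reads, miR-29b-3p was 0.0461 to 0.0495 of miR-29a-3p in AG, 0.0568 to 0.0852 in TI and 0.0430 to 0.101 in TIM. miR-29c-3p was 0.0131 to 0.0157 of miR-29a-3p in AG, 0.0151 to 0.0371 in TI and 0.00857 to 0.0293 in TIM. Both proportions were thus narrow in AG and wide in the tumors. On the log2(CPM + 1) scale the ratio of miR-29b-3p to miR-29a-3p was 0.62 higher in TI than in AG and that of miR-29c-3p to miR-29a-3p was 0.70 higher, in 7 of 7 TI libraries each. For each the two-sided exact permutation p was 0.017, the smallest that 7 against 3 libraries allow, and it was 0.067 after Benjamini-Hochberg adjustment over the 12 ratio tests. In reads without a pseudocount they were 0.59 and 0.60 higher on the log2 scale (exact permutation p = 0.017 and 0.05, adjusted p = 0.20 for each), and the groups overlapped for miR-29c-3p. These ratios thus did not pass after adjustment, and neither did any ratio in TIM against AG or TIM against TI (adjusted p from 0.11 to 0.78 by exact permutation).

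The strands of the hairpins were kept in unlike proportions. For the miR-29a hairpin there were 520 to 544 reads of the guide per read of the opposite strand in AG, 182 to 680 in TI and 211 to 631 in TIM. For the miR-29c hairpin this proportion was near 1, with 0.928 to 1.32 in AG, 0.517 to 1.52 in TI and 0.278 to 1.37 in TIM. On the log2(CPM + 1) scale the ratio of miR-29a-3p to miR-29a-5p was 1.09 lower in TI than in AG (exact permutation p = 0.017, adjusted p = 0.067), which is in part the pseudocount, since it was 0.50 lower in reads without one (adjusted p = 0.31 by exact permutation). The strands miR-29b-1-5p and miR-29b-2-5p, which lie opposite miR-29b-3p, were scarce. miR-29b-1-5p did not reach the level needed for the test, with 0.606 to 1.02 CPM in AG and at most 2.51 CPM in a tumor. miR-29b-2-5p had 4.72 to 7.18 CPM in AG, 0.817 to 6.36 CPM in TI and 0.093 to 9.05 CPM in TIM, with log2 fold changes of -1.28 in TI and -1.24 in TIM against AG (adjusted p = 0.052 and 0.059 from limma).

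**Figure D4:**
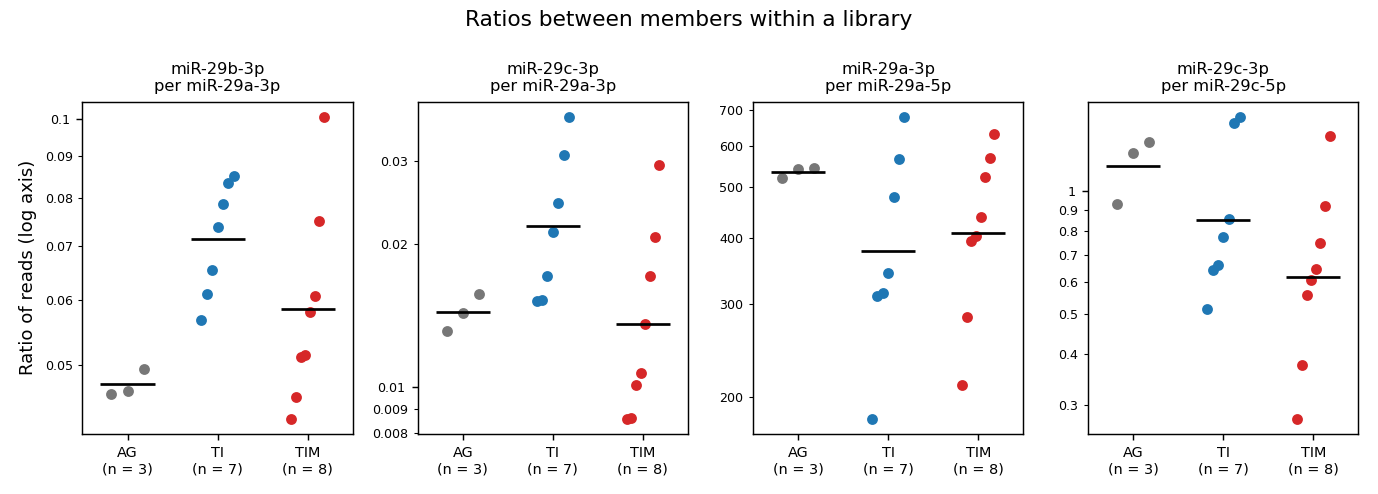
The ratio of reads of 2 members is plotted for each library on a log axis, with a bar at the geometric mean of AG (n = 3), TI (n = 7) and TIM (n = 8). The AG points of miR-29b-3p per miR-29a-3p lie between 0.0461 and 0.0495, below all TI points, and for the ratio of miR-29a-3p to miR-29a-5p the AG points lie at 520 to 544 within the wider range of the tumors.

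Among 396 other miRNAs whose mean reached 10 CPM, those most like miR-29a-3p over the 18 libraries were miR-1843b-5p (Pearson's r = 0.93), miR-26a-5p (r = 0.92), miR-3068-5p (r = 0.91), miR-194-5p (r = 0.90) and miR-1843a-5p (r = 0.89). These values include the difference between AG and tumors. Over the 15 tumor libraries alone they were miR-26a-5p (r = 0.93), miR-1843b-5p (r = 0.90) and miR-129-2-3p (r = 0.89). miR-26a-5p, a repressor of the histone methyltransferase EZH2, had a median of 38311 CPM in AG, 6974 CPM in TI and 7299 CPM in TIM. miR-1843b-5p had a median of 461 CPM in AG, 88.7 CPM in TI and 64.0 CPM in TIM.

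The miRNAs miR-17-5p and miR-20a-5p of the miR-17/92 cluster, which MYC proteins are known to induce, ran opposite to miR-29a-3p. This relation was tested after the opposite course of other strands of the cluster had been seen in these libraries, so its p-values are not independent evidence of it. Over the 15 tumors Pearson's r on the log2(CPM + 1) scale was -0.88 for miR-17-5p (Spearman's rho -0.81) and -0.88 for miR-20a-5p (rho -0.82). The permutation p was 0.00012 and 8e-05, or 0.00072 and 0.00064 after Benjamini-Hochberg adjustment over 24 relations, and that of rho 0.00036 and 0.00024 (adjusted 0.0022 and 0.0019). Without the 2 libraries farthest from the median of miR-29a-3p, r was -0.83 and -0.84. Without the library that stood apart, a setting chosen after seeing the data, it was -0.85 and -0.86 over 14 tumors. With CPM computed without the TMM factor it was -0.71 and -0.75. For miR-19a-3p and miR-19b-3p of the same cluster r was weaker, -0.57 and -0.61 (permutation adjusted p = 0.052 and 0.041), and rho was -0.51 and -0.57 (adjusted p = 0.11 and 0.059).

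Within TI the relation had the same sign, with r = -0.80 for both miR-17-5p and miR-20a-5p (exact permutation adjusted p = 0.071 and 0.054, n = 7) and rho = -0.57 for both (adjusted p = 0.27 by exact permutation), and did not pass after adjustment. Within TIM r was -0.92 for each (exact permutation adjusted p = 0.013 for each, n = 8) and rho -0.88 (adjusted p = 0.022 by exact permutation), again over libraries divided by the gap between the 3 high and 5 low ones. Levels of all miRNAs of a library share its total, and reads per library moved with miR-29a-3p in TIM, and the part of either in these relations was not tested.

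**Figure D5:**
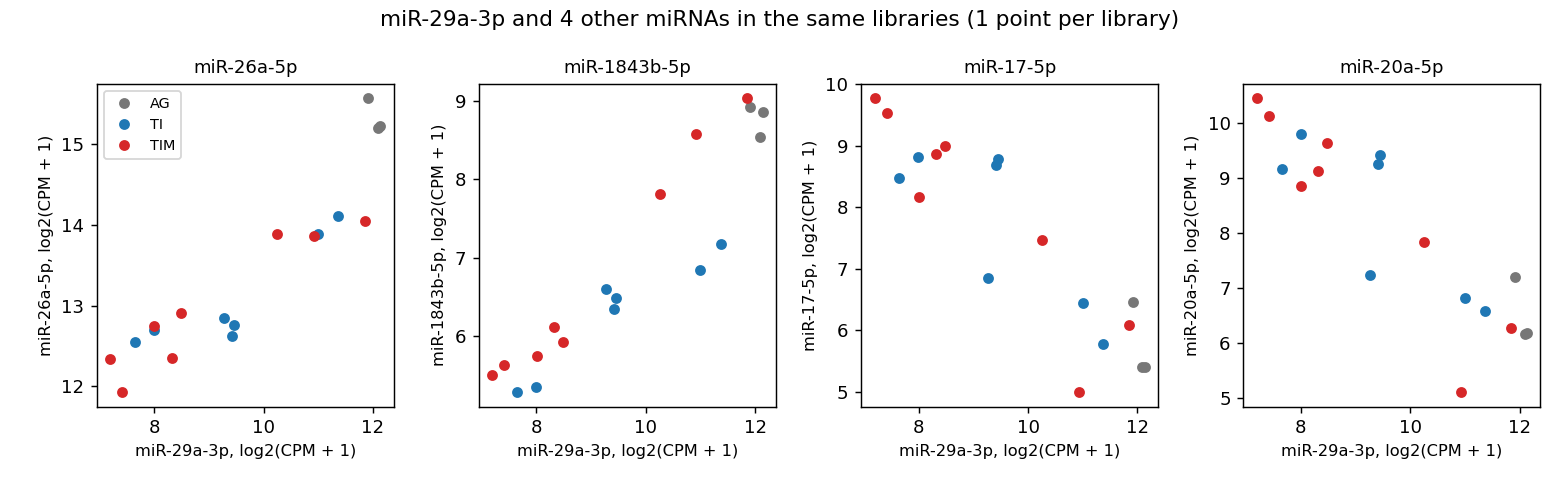
Levels of miR-26a-5p, miR-1843b-5p, miR-17-5p and miR-20a-5p are plotted against that of miR-29a-3p, both as log2(CPM + 1), with 1 point per library of AG (n = 3), TI (n = 7) and TIM (n = 8). The first 2 are higher where miR-29a-3p is higher (r = 0.93 and 0.90 over the 15 tumors) and the last 2 are lower there (r = -0.88 for each).

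Other miRNAs known to be repressed by MYC proteins were taken as a list of 18 guide strands. In TI against AG, 10 of them passed lower, where 29.3% of all miRNAs did, and 1, miR-16-5p, passed higher, a direction in which 26.4% of all miRNAs passed, with a median log2 fold change of -1.52 against -0.0094 over all miRNAs tested. In TIM against AG, 10 passed lower, where 25.9% of all did, and 0 higher, where 25.5% of all did, with a median of -1.42 against 0.18. The 2 with the lowest adjusted p in TI were miR-30c-5p and miR-30d-5p of the miR-30 family. miR-30c-5p had 6394 ± 1126 CPM in AG (SD, n = 3), 1409 ± 501 CPM in TI (n = 7) and 1245 ± 409 CPM in TIM (n = 8), with log2 fold changes of -2.27 and -2.41 (adjusted p = 5.54e-05 and 2.39e-05 from limma). miR-30d-5p had log2 fold changes of -1.81 and -1.75 (adjusted p = 1.22e-04 and 1.38e-04 from limma). The 2 with the highest adjusted p were miR-23b-3p, with log2 fold changes of 0.07 in each tumor type (adjusted p = 0.91 and 0.91 from limma), and miR-497a-5p, with 0.12 in TI and -0.11 in TIM (adjusted p = 0.88 and 0.88). miR-16-5p, the exception, had 593 ± 105 CPM in AG, 1026 ± 190 CPM in TI and 588 ± 115 CPM in TIM, and was 1 of the list that differed between TIM and TI (log2 fold change -0.80, adjusted p = 0.013 from limma).

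The other families with a seed match that the study mutated in the MYCN 3′UTR gave a list of 16 miRNAs, which is not independent evidence of a direction. It was drawn up here and holds part of these families, with miR-34a-5p alone of the miR-34 family and without miR-302, miR-93, miR-106 and miR-20b. It shares let-7a-5p, let-7d-5p, let-7g-5p and miR-34a-5p with the list above. In TI 7 of 16 passed lower (29.3% of all miRNAs) and 0 higher (26.4% of all), with a median log2 fold change of -0.66 against -0.0094 over all tested. In TIM 6 passed lower (25.9% of all) and 1 higher (25.5% of all), with a median of -0.57 against 0.18. The 2 with the lowest adjusted p in TI were miR-101a-3p, another repressor of EZH2, and let-7a-5p. The latter is a repressor of RAS, HMGA2 and IGF2BP1, the last through a 3′UTR that the transgene lacks. miR-101a-3p had log2 fold changes of -1.58 in TI and -1.52 in TIM (adjusted p = 1.11e-04 and 1.28e-04 from limma), and let-7a-5p had -1.80 and -1.38 (adjusted p = 4.24e-04 and 0.0035). The 2 with the highest were let-7b-5p, with -0.11 and -0.41 (adjusted p = 0.75 and 0.18), and miR-19a-3p, with 0.34 and -0.15 (adjusted p = 0.69 and 0.86). The miRNA that passed higher in TIM was miR-17-5p, with 2.23 (adjusted p = 0.044).

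Markers of other cells in the tissue also differed between tumors and gland, and their counts stand against 29.3% of all miRNAs that passed lower in TI and 25.9% in TIM. Of 4 fibroblast and stroma markers, 4 passed lower in TI and 2 passed lower in TIM. Their summed level was 2030 to 3202 CPM in AG, 346 to 1605 CPM in TI and 234 to 1280 CPM in TIM. Of 3 smooth muscle and pericyte markers, 2 were lower in TI and 3 in TIM. Both endothelial markers, the strands of miR-126a, were lower in both tumor types, with a summed level of 38529 to 46092 CPM in AG, 1704 to 6736 CPM in TI and 2428 to 8943 CPM in TIM. Of 5 leukocyte markers, 3 were lower in TI and 4 in TIM, among them miR-150-5p, which also stands in the list of 18. No marker of erythroid cells, epithelium or muscle passed in either tumor type, and 0 of the markers was at 0 in every library. The 2 TIM libraries with the highest level of miR-29a-3p had 7701 and 8943 CPM of the endothelial markers and those with the lowest level had 2790 and 2428 CPM. In TI the libraries with 2641 and 2043 CPM of miR-29a-3p had 6736 and 2924 CPM of these markers, and that with 199 CPM had 5226 CPM. The part of these cells in the level of the miR-29 members was not tested.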

How the data were processed

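Small RNA libraries of 3 wildtype adrenal glands (AG), 7 IGF2BP1 tumors (TI) and 8 IGF2BP1/MYCN tumors (TIM) were analysed. Per the labels, reads were processed by the authors with cutadapt 2.8, Bowtie2 2.3.5.1 (mm10), featureCounts 2.0.0 and edgeR 3.40. The deposited signal is a CPM value, for which the authors divided reads by the product of library total and TMM factor. A further 9 deposited columns hold comparisons made by the authors (log2 fold changes, p-values and FDR), which were not used.

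All values (100%, tolerance 0.01 reads) were whole multiples of 1 read, so reads were recovered for edgeR 4.0.16 (quasi-likelihood) and DESeq2 1.42.0 as alternatives. The main test was limma 3.58.1 (R 4.3.3, trend on) applied to log2(CPM + 1) of miRNAs that reached 1 CPM in 3 or more libraries, with 1 model for the 18 libraries and Benjamini-Hochberg adjustment over the 726 tested. limma and edgeR were tested on simulated data, and DESeq2 was not. Ratios and correlations were tested by two-sided permutation over libraries in numpy 2.4.6, with the smaller tail doubled. The permutation was exact within groups and for ratios and used random draws over all tumors. The ratio test was checked against scipy 1.17.1. Nothing in the labels ties libraries to litters or runs, so p-values measure the spread between these samples. No 2 libraries of a group were identical.

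The members and lists were chosen with earlier results of these data known. From each list the 2 miRNAs with the lowest and the 2 with the highest adjusted p in TI against AG are named, and miR-16-5p and miR-17-5p were added after their values were seen. The miRNAs most like miR-29a-3p were named by Pearson's r. Mature sequences and hairpins were taken from RefSeq (GRCm38.p6) and 3′UTRs from GENCODE (GRCm39). The other experiments of the study were not analysed here.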

Additional observations from a re-analysis of the deposited data

How the results depend on the processing

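miR-29a-3p passed in each of 10 alternative settings in TI (log2 fold change -2.81 to -2.02) and in TIM (-3.04 to -2.17) against AG. Scalings moved the median of all miRNAs tested by -0.13 to 0.32 in TI, by -0.040 to 0.35 in TIM and by -0.038 to 0.42 between TIM and TI, and relative to it the median of the members was -1.94 to -1.72 for TI and -2.81 to -2.59 for TIM. The members that passed in TI (2 of 5) were 1 with a pseudocount of 0.1, with totals that leave miR-148a-3p out, with a filter of 10 CPM, with no filter, with edgeR and with DESeq2, and 5 when the model held 2 groups. Over all miRNAs 423 of 726 passed in TI with that pseudocount, 372 of 775 with miR-148a-3p out of the totals and 300 of 456 with that filter. With no filter 447 of 1631 passed, and with 2 groups in the model 406 of 669. In TIM the members that passed (5 of 5) were 3 with miR-148a-3p out of the totals, where 351 of 775 miRNAs passed, and 1 with edgeR. Leaving out 1 library gave 0 to 5 in TI, where each AG library gave 0, 3 of the TI libraries gave 1 and the library that stood apart gave 5. It gave 2 to 5 in TIM, where the AG libraries gave 2 or 3, and 0 between TIM and TI. Over all miRNAs tested, 38 differed between TIM and TI, against 21 with a pseudocount of 5, 155 without the TMM factor, 17 with a filter of 10 CPM, 24 with 2 groups in the model, 3 with edgeR and 123 with DESeq2. Leaving out 1 library gave 24 to 68 here, 294 to 431 in TI and 227 to 383 in TIM against AG. Of the calls, 47.4% were higher in TI and 49.6% in TIM against AG, and 59.7% and 66.4% with miR-148a-3p out of the totals. Between TIM and TI it was 65.8%, and from 33.3% with edgeR to 89.0% without the TMM factor.

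Between TIM and TI the log2 fold changes of miR-29a-3p and miR-29a-5p, which did not pass, turned to 0.16 and 0.043 without the TMM factor. With a pseudocount of 0.1, the ratio of miR-29c-3p to miR-29a-3p in TIM against AG turned to -0.051, and that of miR-29a-3p to miR-29a-5p between TIM and TI to 0.070. In reads without a pseudocount, a setting chosen after seeing the data, they were -0.083 and 0.11. Leaving out 1 library, the ratio of miR-29a-3p to miR-29a-5p ran from -1.38 to -1.03 in TIM against AG and from -0.28 to 0.068 between TIM and TI, and that of miR-29c-3p to miR-29c-5p from -0.90 to -0.61 in TIM against AG. The first and last of these passed without the TIM library that had 1944 CPM of miR-29a-3p (adjusted p = 0.04 by exact permutation, values -1.38 and -0.89). The causes of these changes were not tested. No paired analysis was made, because the groups are of different genotypes and so hold different mice.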

Other observations

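The miRNAs most opposite to miR-29a-3p over the 15 tumor libraries, picked after their values were seen and so given with no test, were miR-18a-5p (Pearson's r = -0.93), miR-92a-3p (r = -0.91) and miR-106b-5p (r = -0.90), out of 396 compared on the log2(CPM + 1) scale. Over all 18 libraries they were miR-18a-5p (r = -0.95), miR-92a-3p (r = -0.93) and miR-106b-3p (r = -0.91). miR-18a-5p and miR-92a-3p are made from the miR-17/92 cluster, the latter also from another hairpin, and the strands of miR-106b come from a related cluster. The points share the total and the scaling of their library. Without the TMM factor r over the tumors was -0.76 for miR-18a-5p and -0.80 for miR-92a-3p.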
